A study of Mus musculus with 6 samples.

Results

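The mature microRNAs (miRNAs) described here are 7 products of the miR-17-92 and miR-106b-25 clusters in extracellular vesicles from mouse bone, 4 from the first cluster (miR-17-5p, miR-20a-5p, miR-19b-3p and miR-92a-3p) and 3 from the second (miR-25-3p, miR-93-5p and miR-106b-3p). They were taken by name from a table of 1927 rows, of which 327 were above 0 in any library. The vesicles came from the crushed tibias and femurs, freed of marrow by a short spin, of untreated male mice of the outbred strain Swiss-CD1 aged 8 weeks. Large vesicles (lEVs) were pelleted at 10000 g, and small vesicles (sEVs) were collected at 100000 g on a cushion of 30% sucrose, so size, spin and cushion differ together and cannot be told apart. Each fraction had 3 libraries. Nothing in the labels ties a library to one animal or preparation, and the p-values below measure only the spread between these libraries, which may be technical.

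The miR-17-92 cluster is a polycistronic transcript: one primary RNA carries several hairpins, each cut into a short duplex whose strands can be loaded into Argonaute. It is known as an oncogenic cluster and as a regulator of B cell development, cell cycle exit and apoptosis. The miR-106b-25 cluster is a paralog within the gene of the replication helicase subunit Mcm7, and a further paralog, miR-106a-363, lies on chromosome X. The miRNAs fall into families by their seed, bases 2 to 8 of the mature strand, which pairs with target messenger RNAs. The miR-17 family is known to repress E2f1, Cdkn1a and Bcl2l11, and the miR-92/25 family Bcl2l11 and several integrins.

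The mature sequences, from RefSeq (GRCm38.p6; all 7 were matched), are shown 5′ to 3′ with the seed in capitals, since the seed cuts across the clusters. The first group shares the miR-17 seed, the second the miR-92/25 seed, and the last 2 stand alone among the 7:
miR-17-5p: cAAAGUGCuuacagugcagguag
miR-20a-5p: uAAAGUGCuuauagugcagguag
miR-93-5p: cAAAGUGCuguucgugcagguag
miR-92a-3p: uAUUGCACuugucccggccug
miR-25-3p: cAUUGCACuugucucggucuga
miR-19b-3p: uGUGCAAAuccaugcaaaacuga
miR-106b-3p: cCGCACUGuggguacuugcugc
With positions counted from the 5′ end, miR-17-5p and miR-20a-5p differed at 2 positions, C1U and C12U. miR-93-5p differed from miR-17-5p at 4 positions, all next to each other and outside the seed (U10G, A11U, C12U and A13C). Over the 21 bases they share, miR-92a-3p and miR-25-3p differed at 3 positions, U1C, C14U and C18U. miR-106b-3p is the opposite arm of its hairpin and shares its seed with no other mouse miRNA in the RefSeq table.

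The miR-17-92 hairpins lie on chromosome 14 at 115043671 to 115044506 (GRCm38, plus strand), 6 hairpins within 836 bases. Each overlaps an annotated exon of the noncoding host gene Mir17hg in GENCODE M21. The miR-106b-25 hairpins lie on chromosome 5 at 138165321 to 138165818 (minus strand), 3 hairpins within 498 bases. Mir106b lies in an intron of Mcm7, while Mir93 and Mir25 overlap an exon annotated for some transcript of that gene. The mature miR-19b-3p and miR-92a-3p are each also encoded, base for base, in the cluster on chromosome X (Mir19b-2 and Mir92-2), so their counts cannot be assigned to one locus. The other close relatives differ by few bases, 1 between miR-17-5p and miR-106a-5p (U10A) and 2 between miR-20a-5p and miR-20b-5p (U1C and U10C), so counts could have been shared between them if mismatches were allowed.

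Library totals ranged from 47441 counts to 92502 in lEVs and from 75486 to 114331 in sEVs. lEVs replicate 1 was the shallowest and stood apart: its counts differed from those of lEVs replicate 2 with a chi-square over degrees of freedom of 25.9, against 2.40 between lEVs replicates 2 and 3. Levels are given as CPM, in which TMM factors put the libraries on one scale. Each mature miRNA is covered by a single read whatever its length of 21 to 23 bases, so CPM needs no division by length. Levels of different miRNAs nevertheless depend also on how well each sequence is ligated and amplified.

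The levels of the 7 members spread widely within both clusters. miR-93-5p was highest, with 6638 ± 573 CPM in the large and 6463 ± 494 CPM in the small vesicles (SD, n = 3 each), placing it 26th and 24th among all miRNAs. miR-25-3p followed at rank 27 in lEVs and 39 in sEVs, and miR-92a-3p at 42 and 47. The other 4 lay between ranks 82 and 173. In lEVs the order was miR-93-5p, miR-25-3p, miR-92a-3p, miR-19b-3p, miR-20a-5p, miR-106b-3p and miR-17-5p. The first 2 of these overlapped, as did miR-19b-3p with miR-20a-5p and miR-20a-5p with miR-106b-3p, while the other neighbours were apart. In sEVs the order was miR-93-5p, miR-25-3p, miR-92a-3p, miR-20a-5p, miR-19b-3p, miR-17-5p and miR-106b-3p. There miR-20a-5p overlapped with miR-19b-3p and miR-17-5p with miR-106b-3p. All 7 together held 1.75% ± 0.254 of the lEVs counts and 1.22% ± 0.0819 of the sEVs counts (SD, n = 3 each).

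**Figure D1:**
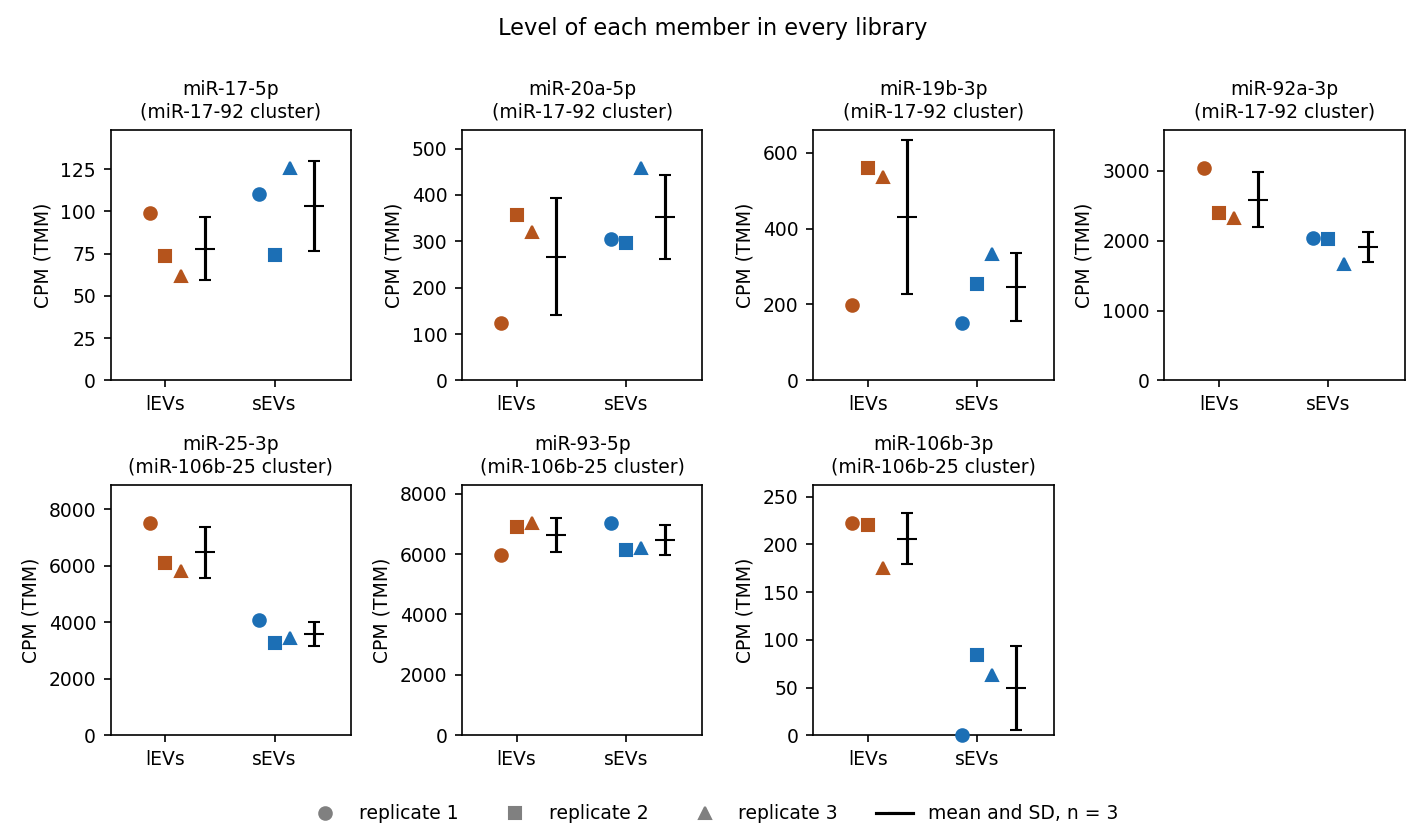
Level of each member (vertical axes, CPM with TMM factors, each from 0) in the 3 lEVs and 3 sEVs libraries; symbols give the replicate, bars the mean and SD. miR-25-3p, miR-92a-3p and miR-106b-3p have all lEVs libraries above all sEVs libraries, and lEVs replicate 1 is far below the other lEVs libraries for miR-19b-3p and miR-20a-5p.

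The study has 1 comparison, sEVs against lEVs. Of the 7 members, 6 had enough counts to be tested. One, miR-25-3p, fell in sEVs relative to lEVs, and 5 did not pass the threshold, an adjusted p of 0.05 in edgeR (quasi-likelihood F test, Benjamini-Hochberg over the 145 miRNAs tested). Of the 145, 17.2% passed in either direction, 8.97% higher in lEVs and 8.28% higher in sEVs, so 1 of 6 is near the background and says nothing of the clusters as a whole. At an unadjusted p under 0.05 there were 3 members of 6 and 55 miRNAs of 145. The median log2 fold change of sEVs relative to lEVs was -0.64 over the 6 members and -0.04 over all tested miRNAs, with 5 of 6 and 76 of 145 values below 0. The CPM of the fractions did not overlap for 3 of the 6, lEVs being above each time. Among all tested miRNAs 44.1% did not overlap, 22.1% with lEVs above.

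**Figure D2:**
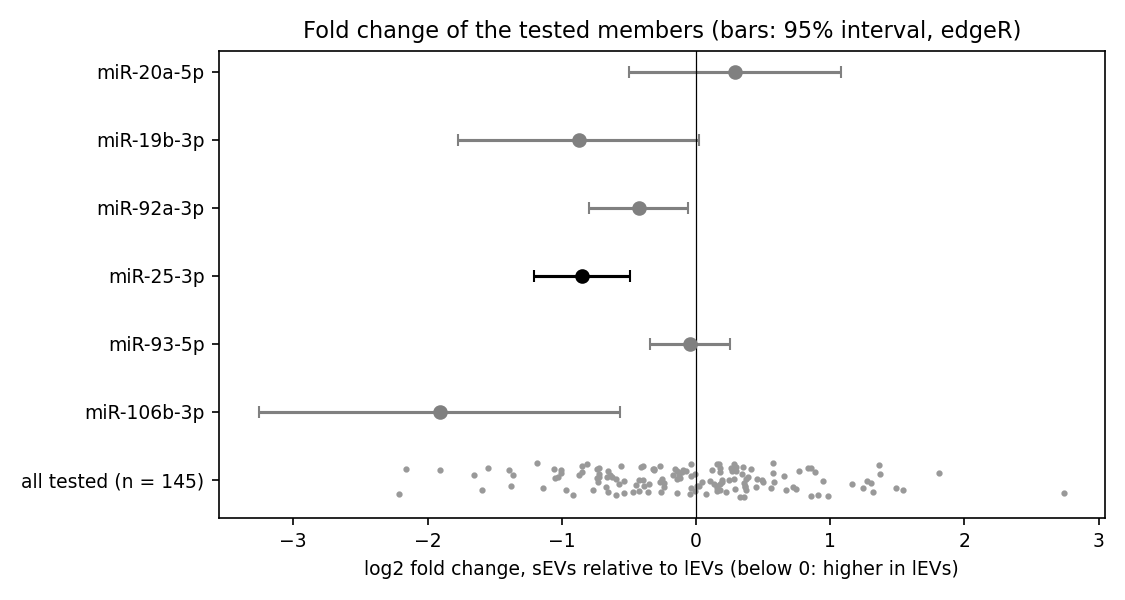
Log2 fold change of sEVs relative to lEVs (horizontal axis) for the 6 tested members, with 95% intervals from edgeR, and for all 145 tested miRNAs (grey dots, spread vertically only for display). The interval of miR-25-3p, in black, is the only one of a called miRNA; those of miR-93-5p, miR-20a-5p and miR-19b-3p include 0.

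Among the members with the miR-92/25 seed, miR-25-3p, a product of the Mcm7 locus that is also abundant in blood cells, had 304, 665 and 562 counts in lEVs replicates 1, 2 and 3 and 294, 308 and 384 in those of sEVs. After scaling these were 7513, 6098 and 5801 CPM in lEVs and 4062, 3257 and 3448 CPM in sEVs. Every lEVs library was above every sEVs library. The log2 fold change was -0.85 (SE 0.15, 95% interval -1.20 to -0.49; edgeR adjusted p = 0.00617), a level 1.80-fold higher in lEVs, and as shares of library totals miR-25-3p held 0.669% ± 0.0430 of the lEVs counts and 0.345% ± 0.0405 of the sEVs counts (SD, n = 3 each). Over the alternatives tried, each left-out library among them, its adjusted p ranged from 1.37e-05 to 0.0300.

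miR-92a-3p, the miR-17-92 product best known for restraining blood vessel growth, had 123, 262 and 225 counts in lEVs replicates 1, 2 and 3 and 148, 192 and 185 in those of sEVs. Scaled, these were 3040, 2402 and 2322 CPM in lEVs and 2045, 2030 and 1661 CPM in sEVs. Again no library of one fraction reached into the range of the other. The log2 fold change of -0.43 (SE 0.16, 95% interval -0.80 to -0.06) did not pass (edgeR adjusted p = 0.0927). It passed when library totals replaced the TMM factors (log2 fold change -0.55; edgeR adjusted p = 0.0436), a scaling under which the median of all tested miRNAs moved from -0.04 to -0.19. Relative to that median, miR-92a-3p stood at -0.39 with TMM factors and at -0.36 with library totals, and miR-25-3p at -0.81 and -0.77.

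Among the members with the miR-17 seed, miR-93-5p, the most abundant member and a regulator of cell cycle genes, had 242, 753 and 681 counts in lEVs replicates 1, 2 and 3 and 509, 581 and 692 in those of sEVs. Its CPM overlapped, from 5981 to 7029 in lEVs and from 6143 to 7033 in sEVs. The log2 fold change was -0.04 (SE 0.13; edgeR adjusted p = 0.810), with a 95% interval from -0.34 to 0.25. That interval does not reach the value of -0.85 of miR-25-3p, its neighbour in Mcm7.

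miR-20a-5p, a repressor of E2f factors, had 5, 39 and 31 counts in lEVs replicates 1, 2 and 3 and 22, 28 and 51 in those of sEVs. It stood at 124, 358 and 320 CPM in lEVs and at 304, 296 and 458 CPM in sEVs, where lEVs replicate 1 was low and the other libraries overlapped (log2 fold change 0.29, SE 0.34, 95% interval -0.50 to 1.08; edgeR adjusted p = 0.521). Without sEVs replicate 3 the log2 value was -0.0095. miR-17-5p, which names the cluster, had 4, 8 and 6 counts in large and 8, 7 and 14 in small vesicles, too few to pass the filter. Its mean was 78.0 ± 18.9 CPM in large and 103 ± 26.6 CPM in small vesicles (SD, n = 3 each), with overlapping libraries. The 4 counts of lEVs replicate 1 are a share of 0.00843% of that library, with a 95% Wilson interval from 0.00328% to 0.0217% that covers counting error only. Without the filter on low counts its log2 fold change was 0.43 (edgeR adjusted p = 0.671).

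miR-19b-3p, the member held to be the main oncogenic part of the cluster, had 8, 61 and 52 counts in lEVs replicates 1, 2 and 3 and 11, 24 and 37 in those of sEVs. It stood at 198, 559 and 537 CPM in the former and at 152, 254 and 332 CPM in the latter. lEVs replicate 1 lay within the sEVs range and the other lEVs libraries above it. The log2 fold change was -0.87 (SE 0.39, 95% interval -1.77 to 0.02; edgeR adjusted p = 0.135). Without lEVs replicate 1 it was -1.11 and passed (edgeR adjusted p = 0.00196). In that library miR-19b-3p and miR-20a-5p differed from the mean of lEVs replicates 2 and 3 by -1.37 and -1.30 (log2), while the median over all tested miRNAs was 0.10. What sets that library apart for these members was not tested.

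miR-106b-3p, the opposite strand to miR-106b-5p with its miR-17 seed, had 9, 24 and 17 counts in lEVs replicates 1, 2 and 3 and 0, 8 and 7 in those of sEVs. Its mean was 206 ± 26.5 CPM in large and 49.1 ± 43.9 CPM in small vesicles (SD, n = 3 each), and the lEVs libraries were all above the sEVs libraries. The log2 fold change of -1.91 (SE 0.58, 95% interval -3.25 to -0.56) was the largest in size among the 6 tested members and did not pass (edgeR adjusted p = 0.0542). The call depended on the setting. It passed in DESeq2 (log2 fold change -1.98; adjusted p = 0.0124), with library totals (-2.07; edgeR adjusted p = 0.0365) and without lEVs replicate 1 (-1.89; edgeR adjusted p = 0.0209), and ranged from -2.45 to -1.43 with single libraries left out. The table holds no value of 1, so its 0 may stand for 0 or 1 count. With every 0 read as 1 count it also passed (-1.78; edgeR adjusted p = 0.0261). By contrast, miR-106b-3p did not pass in limma voom (adjusted p = 0.0747) or with the replicate number as a block (edgeR adjusted p = 0.0928). With a library left out, miR-106b-3p passed only without lEVs replicate 1. The other left-out fits gave edgeR adjusted p-values from 0.0516 (without sEVs replicate 1) to 0.134 (without lEVs replicate 3). Nor did it pass with DESeq2 size factors (edgeR adjusted p = 0.0515) or at a mean of at least 100 CPM (edgeR adjusted p = 0.0556). After thinning the libraries to one depth it had too few counts to be tested. Members called higher in lEVs numbered 3 of 6 without lEVs replicate 1 (15.2% of all miRNAs tested there), 3 with library totals (16.6%), 2 in DESeq2 (12.4%), 2 with zeros read as 1 (8.97%) and 3 of 7 with no filter on low counts (10.1%).

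Summed by cluster, both were lower in sEVs, and by a like amount. The 4 miR-17-92 members summed to 3365 ± 112 CPM in the large and 2614 ± 38.3 CPM in the small vesicles, and the 3 miR-106b-25 members to 13315 ± 364 and 10102 ± 869 CPM (SD, n = 3 each). The lEVs sums were 1.29-fold and 1.32-fold those of sEVs, and the libraries of the fractions did not overlap for either cluster. Since miR-92a-3p made up 76.8% ± 9.61 of the miR-17-92 counts in lEVs and 73.1% ± 7.53 in sEVs, that sum mostly follows one miRNA. Within miR-106b-25, miR-25-3p and miR-93-5p took 48.5% ± 5.49 and 50.0% ± 5.58 of the counts in lEVs. In sEVs they took 35.5% ± 1.14 and 64.0% ± 0.700. The mean of miR-25-3p went from 6471 CPM in lEVs to 3589 in sEVs, and that of miR-93-5p from 6638 to 6463. The difference in the miR-106b-25 sum thus mostly follows miR-25-3p.

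Summed by seed, the picture was uneven. The 3 members with the miR-17 seed summed to 6983 ± 677 CPM in the large and 6919 ± 479 CPM in the small vesicles, with overlapping libraries. The 2 members with the miR-92/25 seed summed to 9059 ± 1308 and 5501 ± 532 CPM (SD, n = 3 each), 1.65-fold higher in lEVs and with no overlap. These sums describe members chosen with results known and carry no test. miR-93-5p made up 95.1% ± 1.17 of the miR-17 seed counts in lEVs and 93.4% ± 1.71 in sEVs. Of the miR-92/25 seed counts, miR-25-3p made up 71.4% ± 0.273 in lEVs and 65.2% ± 3.16 in sEVs, so that sum mostly follows miR-25-3p.

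**Figure D3:**
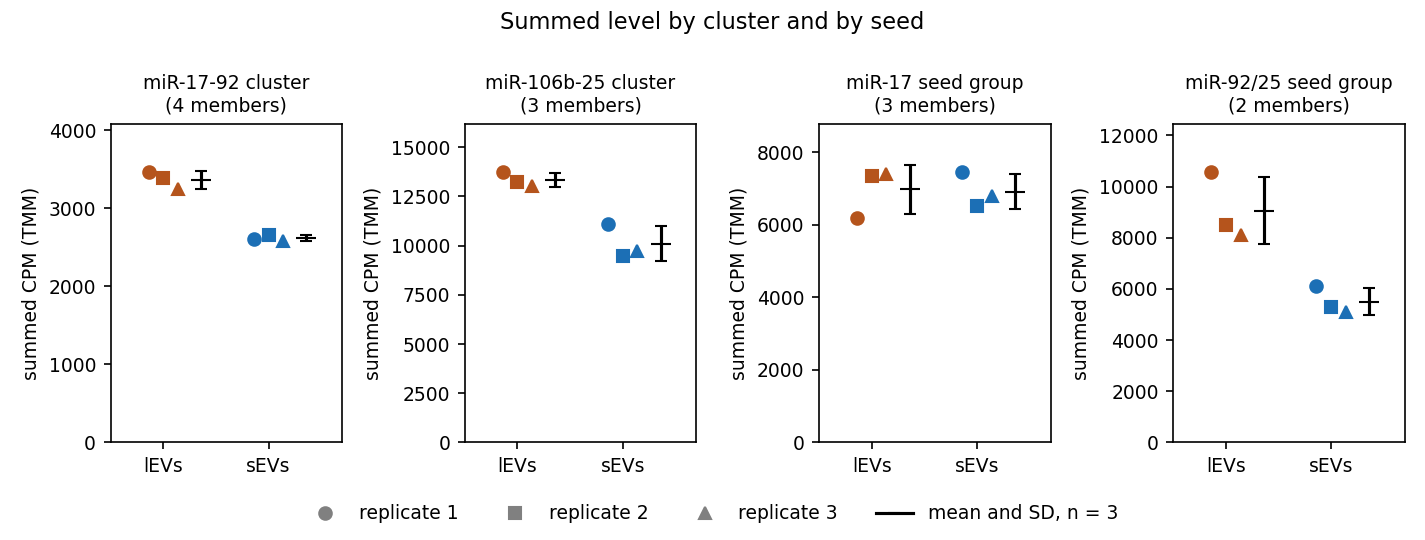
Summed CPM with TMM factors (vertical axes, from 0) of the members by cluster and by seed, in the 3 lEVs and 3 sEVs libraries, with the mean and SD. Both clusters and the miR-92/25 seed group have every lEVs library above every sEVs library, whereas the miR-17 seed group overlaps.

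Ratios between members within one library need no scaling factor, and 8 pairs were compared. In the pair from the Mcm7 locus, miR-25-3p over miR-93-5p, the count ratios were 1.26, 0.883 and 0.825 in lEVs replicates 1, 2 and 3 and 0.578, 0.530 and 0.555 in those of sEVs. The ratio was therefore higher in each lEVs library than in any sEVs library, by a log2 difference of -0.81 for sEVs relative to lEVs (exact two-sided permutation p = 0.1, adjusted over the 8 pairs p = 0.2). No 3 against 3 comparison can give a p below 0.1 in this test, so none of the 8 could pass.

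The pair that shares the miR-92/25 seed, miR-25-3p over miR-92a-3p, had ratios of 2.47, 2.54 and 2.50 in lEVs, nearly the same in the 3 libraries, lEVs replicate 1 included. In sEVs they were 1.99, 1.60 and 2.08, all lower (log2 difference -0.41; exact two-sided permutation p = 0.1, adjusted p = 0.2). The ratio of miR-92a-3p to miR-17-5p, from the same primary transcript unless the copy on chromosome X contributes, had a log2 mean of 4.95 ± 0.169 in lEVs and 4.16 ± 0.503 in sEVs (SD, n = 3 each), without overlap (exact two-sided permutation p = 0.1, adjusted p = 0.2). It rests on the 4 to 14 counts of miR-17-5p per library. The separation did not hold with a pseudocount of 5 counts (log2 difference -0.55; exact two-sided permutation p = 0.2) or after thinning the libraries to one depth (-0.41; exact two-sided permutation p = 0.6). miR-106b-3p over miR-93-5p was also apart (log2 difference -2.57; exact two-sided permutation p = 0.1, adjusted p = 0.2), a value that was -1.35 without sEVs replicate 1, where miR-106b-3p is listed at 0. It was -1.41 with a pseudocount of 5 counts and -1.94 after thinning (exact two-sided permutation p = 0.1 and 0.2).

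The other 4 ratios overlapped between the fractions. miR-93-5p over miR-17-5p and over miR-20a-5p, with the same seed but from the other cluster, differed by log2 values of -0.39 and -0.52 (exact two-sided permutation p = 0.3 and 0.5, adjusted p = 0.4 and 0.571). miR-19b-3p over miR-17-5p differed by -1.09 (exact two-sided permutation p = 0.3, adjusted p = 0.4). miR-20a-5p over miR-17-5p differed by 0.13 (exact two-sided permutation p = 1.0, adjusted p = 1.0), and by -0.53 without lEVs replicate 1. In that library both miR-20a-5p and miR-19b-3p were low against miR-17-5p, with ratios of 1.25 and 2.0, where lEVs replicates 2 and 3 had 4.88 and 5.17 for the first and 7.63 and 8.67 for the second.

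**Figure D4:**
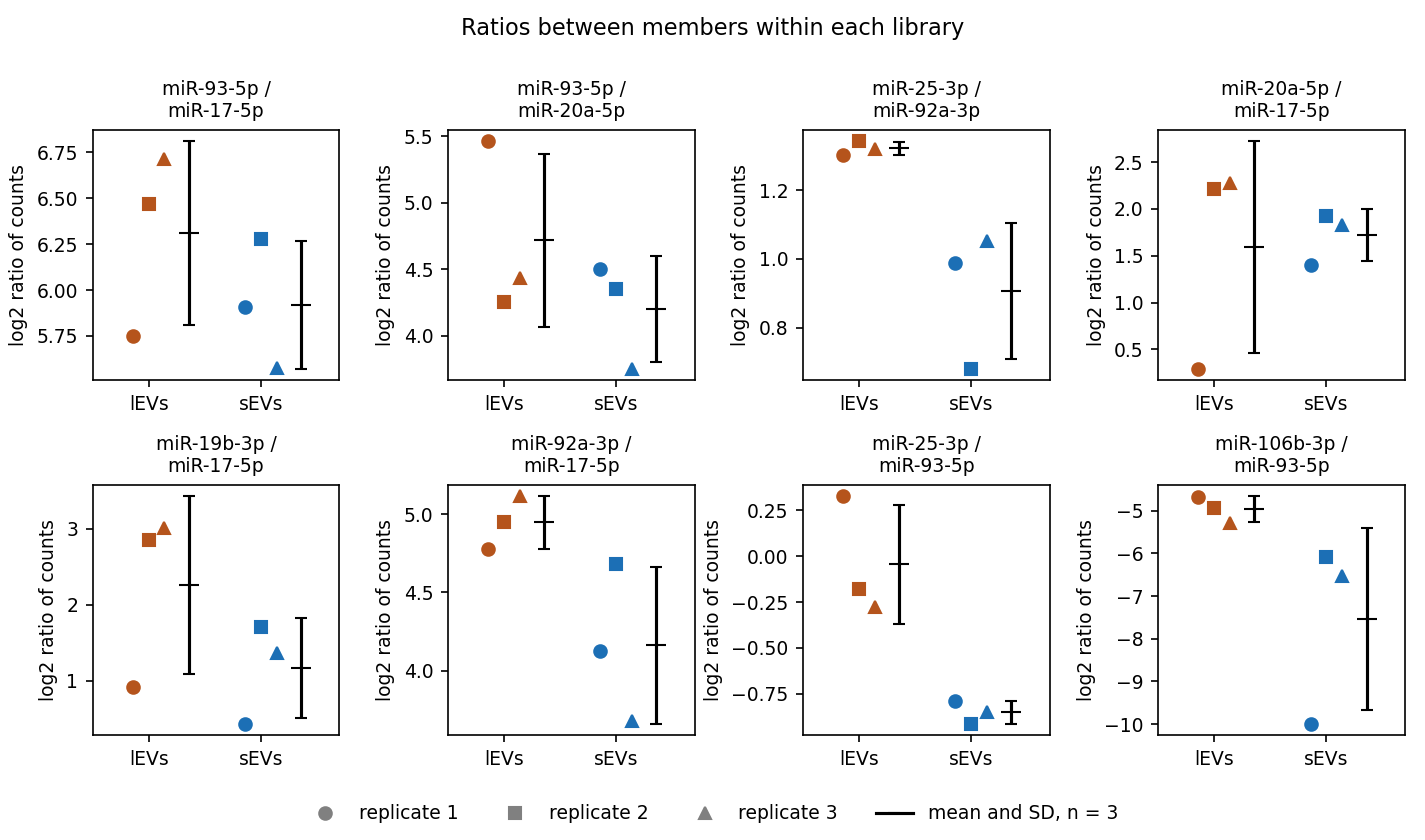
Log2 ratio of counts between members within each library (vertical axes, a pseudocount of 0.5 counts added to each count; scales differ between panels) for the 8 pairs, with the mean and SD over 3 libraries. miR-25-3p over miR-92a-3p is nearly constant in lEVs and lower in all sEVs libraries, and lEVs replicate 1 is apart from the other lEVs libraries for the pairs with miR-20a-5p and for miR-19b-3p over miR-17-5p.

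The remaining products of these clusters, the miR-106a-363 paralogs and the other carriers of the seeds were nearly absent. Of 24 such miRNAs, all had a row in the table, 11 were above 0 in any library, none passed the filter on low counts, and the largest single count was 14. The 3 members with the miR-17 seed held 99.3% of the 3706 counts of all 7 miRNAs with that seed, and miR-92a-3p and miR-25-3p 99.4% of the 3674 counts of the 6 with the miR-92/25 seed. For the miR-19 seed the share was 84.3% of 229 counts, the rest being miR-19a-3p, which differs from miR-19b-3p at 1 position (C11U). miR-19a-3p had 7, 14 and 6 counts in lEVs replicates 1, 2 and 3 and 0, 5 and 4 in sEVs. miR-18a-5p, a miR-17-92 product with none of these seeds, had 5, 7 and 4 counts in the lEVs libraries and 4, 0 and 0 in those of sEVs. The paralogs from chromosome X amounted to 45 counts over 10 miRNAs.

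For 6 of the 7 members, the other arm of the hairpin had few or no counts beside the member, where miR-19b-3p and miR-92a-3p can each come from a second hairpin. The Mir106b and Mir93 hairpins from RefSeq are shown because their arms were counted so differently, with both mature arms in capitals, 5p first:
Mir106b: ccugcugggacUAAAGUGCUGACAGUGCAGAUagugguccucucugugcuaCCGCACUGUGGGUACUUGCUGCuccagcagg
Mir93: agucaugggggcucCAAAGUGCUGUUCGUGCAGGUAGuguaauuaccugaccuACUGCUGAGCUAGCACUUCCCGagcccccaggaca
miR-106b-5p, the arm with the miR-17 seed, was listed at 0 in all 6 libraries, while the 3p arm had 65 counts. In Mir93 the 5p arm held 99.8% of the counts, 3458 against 6 (exact 95% binomial interval 99.6% to 99.9%, for counting error only). miR-106b-5p differs from miR-20a-5p at 3 positions over their shared 21 bases (U10G, U12C and G20A) and from miR-93-5p at 5 (C1U, U11A, U12C, C13A and G20A). Whether reads of miR-106b-5p were counted under another name was not tested.

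The 3p arm held 99.1% of the Mir25 counts (2517 against 23). miR-92a-3p, which Mir92-2 on chromosome X can also give, had 1135 counts, and miR-92a-1-5p, the other arm of Mir92-1, had 8, all in lEVs, as 3, 3 and 2 counts. Neither miR-20a-3p nor miR-19b-1-5p rose above 0 in any library. Mir17 was the exception, with 18 counts of the 5p and 14 of the 3p arm over the lEVs libraries, against 29 and 10 over those of sEVs. The 5p arm thus held 56.3% in lEVs (exact 95% binomial interval 37.7% to 73.6%) and 74.4% in sEVs (57.9% to 87.0%), intervals that overlap and cover counting error only.

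The miRNAs most like each cluster over the 6 libraries were found by the root mean square difference of centred log2 CPM from the mean profile of its 3 tested members, among 137 miRNAs with a mean of at least 100 CPM. For miR-106b-25 these were miR-29a-3p, a repressor of collagen messenger RNAs (0.19), miR-99b-3p (0.20) and miR-128-3p, a miRNA abundant in brain (0.21), where the median over the 137 was 0.60. For miR-17-92 they were miR-7a-5p (0.20), the myeloid and lymphoid miR-142a-5p (0.20) and miR-146b-5p (0.21), where the median was 0.51. Each profile gave its 3 members equal weight, although their log2 fold changes ran from -1.91 to -0.04 in miR-106b-25 and from -0.87 to 0.29 in miR-17-92. The likeness is thus to a mean and not to each member. miR-29a-3p and miR-128-3p had log2 fold changes of -1.06 and -1.18, against -0.04 for miR-93-5p, the most abundant member.

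Markers of cells that bone vesicles could come from were read beside these results. Summed CPM of the 4 red cell rows overlapped between lEVs (4612 to 8749) and sEVs (4499 to 5963), with 0 of 2 tested rows called, and so did the 4 myeloid rows (48114 to 50680 and 45817 to 49580; 0 of 4 called). The 3 lymphoid rows were higher in every sEVs library (6744 to 7406 against 5109 to 5313 in lEVs; 1 of 3 rose). Summed, the 3 skeletal muscle rows were higher in every lEVs library (20883 to 21925 against 17368 to 20547; 0 of 3 called). These rows were split, with log2 fold changes of -0.85 for miR-133a-3p/133b-3p, -0.67 for miR-206-3p and 0.18 for miR-1a-3p, the most abundant of them. The 5 mesenchymal rows, summed, overlapped (107396 to 131353 in lEVs, 126161 to 143213 in sEVs; 1 of 5 rose). Their log2 fold changes were 0.11 for miR-199a-3p/199b-3p, the most abundant, 0.45 for miR-199a-5p and 0.65 for miR-143-3p, which rose. Values were below 0 for miR-214-3p (-0.17) and miR-145a-5p (-1.005), the latter higher in every lEVs library. Of the myeloid rows, miR-223-5p (-0.72) was likewise higher in every lEVs library. The others stood at 0.04 (miR-223-3p, the most abundant), -0.25 (miR-142a-3p) and -0.14 (miR-142a-5p). No marker row was at 0 in all libraries. The part of any of these cells in the result for miR-25-3p was not tested, and a smaller number of vesicles from a cell type cannot be told apart from less of a miRNA in each vesicle.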

How the data were processed

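Per the labels' protocols, miRNeasy-extracted RNA went into QIAseq libraries, read singly for 75 bases on a MiSeq. The authors deposited raw counts per mature miRNA, 1 column per library. Per the submitters' processing notes the build was GRCm38, with R 4.2.2 and DESeq2 1.38.2; no source used here gives the aligner, the strand setting or the use of molecular identifiers. The table held 0 values of 1 and 77 of 2, and 35 rows joined several names, none of them a member.

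Counts were fitted with edgeR 4.0.16 under R 4.3.3 by its quasi-likelihood test (TMM factors; filterByExpr at 10 counts and a total of 15), keeping 145 miRNAs, miR-17-5p not among them. Adjusted p-values were called at 0.05. SE is the absolute log2 fold change over the square root of F. The fit was tested on simulated data. Alternatives were DESeq2 1.42.0, limma voom 3.58.1, other scalings and filters, a replicate block, thinning to 47441 counts and each library left out; reading zeros as 1 was added after seeing the data. Ratios used a pseudocount of 0.5 counts and exact tests (scipy 1.17.1). Named miRNAs were the 7 members, the listed relatives, the marker lists (red cell, myeloid, lymphoid, skeletal muscle, mesenchymal) and the 3 most similar miRNAs per cluster. Members and lists were chosen with earlier results of these data known.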

Additional observations from a re-analysis of the deposited data

How the results depend on the processing

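miR-25-3p was called higher in lEVs under every alternative, and no member was called higher in sEVs. Members called higher in lEVs numbered 1 of 6 in the main test (8.97% of all tested miRNAs), 3 with library totals (16.6%) and 2 in DESeq2 (12.4%). There were 3 of 7 with no filter on low counts (10.1%) and 2 with zeros read as 1 count (8.97%). With a library left out the number was 1 to 3, reaching 3 without lEVs replicate 1 (15.2%). Calls gained were miR-92a-3p (-0.55) and miR-106b-3p (-2.07) with library totals, and miR-106b-3p in DESeq2 (-1.98) and with zeros read as 1 (-1.78). Without the filter, miR-106b-3p (-1.97) and miR-19b-3p (-0.91) were gained, where edgeR gave adjusted p = 0.00405 and 0.0178. Without lEVs replicate 1 the calls gained were miR-19b-3p (-1.11) and miR-106b-3p (-1.89). With a library left out, log2 fold changes ranged from -0.94 to -0.75 for miR-25-3p, -0.53 to -0.32 for miR-92a-3p, -2.45 to -1.43 for miR-106b-3p, -1.21 to -0.62 for miR-19b-3p, -0.12 to -0.03 for miR-93-5p and -0.0095 to 0.48 for miR-20a-5p.

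Log2 differences of ratios ranged, with a library left out, from -0.93 to -0.62 for miR-25-3p/miR-93-5p, -0.49 to -0.30 for miR-25-3p/miR-92a-3p, -3.29 to -1.35 for miR-106b-3p/miR-93-5p, -1.05 to -0.54 for miR-92a-3p/miR-17-5p, -1.76 to -0.71 for miR-19b-3p/miR-17-5p, -0.67 to -0.19 for miR-93-5p/miR-17-5p, -0.75 to -0.14 for miR-93-5p/miR-20a-5p and -0.53 to 0.47 for miR-20a-5p/miR-17-5p. With a pseudocount of 5 counts and after thinning, respectively, they were -0.16 and -0.042 for miR-93-5p/miR-17-5p (main value -0.39), -0.84 and -0.63 for miR-19b-3p/miR-17-5p (-1.09), 0.15 and 0.47 for miR-20a-5p/miR-17-5p (0.13), -0.55 and -0.41 for miR-92a-3p/miR-17-5p (-0.79), -1.41 and -1.94 for miR-106b-3p/miR-93-5p (-2.57) and -0.32 and -0.51 for miR-93-5p/miR-20a-5p (-0.52). miR-25-3p/miR-93-5p and miR-25-3p/miR-92a-3p moved by less than the spread between replicates in both. Summed levels ranged from -0.39 to -0.34 for miR-17-92, -0.47 to -0.36 for miR-106b-25, -0.80 to -0.60 for the miR-92/25 seed and -0.092 to 0.032 for the miR-17 seed (0.024 without lEVs replicate 2, 0.032 without lEVs replicate 3 and 0.029 without sEVs replicate 2). With library totals they were -0.49 for miR-17-92, -0.52 for miR-106b-25 and -0.15 for the miR-17 seed. Where no cause is named, the cause was not tested.

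The labels give no pairing of same-numbered libraries, so the numbers were not read as pairs. Deviations from the fraction means correlated at -0.04, 0.02 and 0.35 between same-numbered libraries and from -0.30 to 0.15 between the others. With 3 libraries per fraction these values cannot decide whether the libraries were paired. With the replicate number as a block, 26 miRNAs were called in place of 25 and miR-25-3p remained (log2 fold change -0.85; edgeR adjusted p = 0.00562). miR-17-5p could not be tested except without the filter (edgeR adjusted p = 0.671). miR-17-5p had 4 to 14 counts in a library and miR-106b-3p 0 to 24, so counting error weighs on both.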
